A study of Rattus norvegicus with 20 samples.

Results

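Of 32623 rat gene IDs counted, 101 made up a set of transcripts that neural stem cells lost when they differentiated and that CHIR99021 did not hold up. The members were chosen by their measured values of L, the log2 of CPM plus 1, where CPM is the reads of a gene in a library scaled to a total of 1000000. A member had an L of 3 or more in both unstimulated libraries of 0 d, and each of those values stood at least 1.5 above each unstimulated value of 5 d. Its mean over CHIR99021 at 3 d and 5 d ON lay less than 0.5 above the unstimulated 5 d mean. Of 7740 IDs with an L of 3 or more at 0 d, 154 met the criterion of loss. CHIR99021 left 101 of these lost, and the other 53 stood higher under it by 0.5 or more. Those values came from 6 libraries (unstimulated 0 d and 5 d, CHIR99021 3 d and 5 d ON), and differences that involve any of these 6 are descriptions here, with no test. The other 14 libraries took no part in the choice.

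The cells were cultured rat hippocampal adult neural stem cells, and the 3' ends of their messenger RNA were counted in 20 libraries. Unstimulated libraries came from wild-type and from optoWnt cells at 0, 3 and 5 d, 1 of each genotype per time. The optoWnt cells carried a transduced light-responsive activator of Wnt signalling and had been selected with puromycin, and the labels give all stimulated libraries as optoWnt cells. The stimulus was CHIR99021 (labelled 3 mM), Wnt3a protein (100 ng/mL) or light from LED arrays. It was ON for 1 d or 3 d, or ON for 1 d and then OFF for 1 d or 2 d, with 1 library for each inducer and profile. At 5 d ON the libraries analysed were of CHIR99021 and Wnt3a. The treatment medium held serum and N-2 supplement, and per the labels' protocols the maintenance medium held FGF-2. The titles of the unstimulated 3 d and 5 d libraries include ON as well, and the sources used here do not say whether light reached these wells. Each inducer and genotype was sequenced 1 time per profile. Separate cultures are not stated, so p-values measure only the spread between these libraries. Libraries of 1 profile differ in inducer or in genotype, so that spread is not between replicates of 1 condition.

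Neural stem cells are kept dividing in culture by FGF-2, and when it is withdrawn they leave the cell cycle and turn on genes of neurons or glia while transcripts of the dividing stem cell state are lost. In the canonical Wnt pathway, Wnt ligands bind Frizzled and LRP receptors, GSK-3 no longer marks β-catenin for destruction, and β-catenin enters the nucleus and acts on genes through TCF and LEF factors. CHIR99021 inhibits GSK-3 directly and so acts below the receptors, whereas Wnt3a acts at them and optoWnt clusters an LRP tail under light. In the adult hippocampus this pathway is known for its part in the renewal and the neuronal differentiation of stem cells.

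The files give Ensembl IDs and do not pair them with names, and 0 of them matched a symbol in the reference tables used here. The members are therefore described by level and pattern, and neither their functions nor the markers of neural stem cells, neurons, astrocytes or other cells could be read. A lower value in these bulk cultures cannot tell fewer cells of a type from less RNA per cell. Library totals ran from 696463 reads (Wnt3a 1 d ON) to 5935681 reads (optoWnt 3 d). In the shallowest library 3 reads correspond to an L of 2.41, and 22 members had 3 reads or fewer there, 10 of them none. In 6 libraries the score on the first principal component, which held 30.7% of the variance, was negative: wild-type 0 d, wild-type 5 d, light 3 d ON, Wnt3a 5 d ON, and CHIR99021 and Wnt3a at 1 d ON 2 d OFF. By 1 or more, 67 genes were lower in each of those 6 libraries than in each of the other 14, a pattern that the rule bars to members, which are high at wild-type 0 d.

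At 0 d the members covered a wide range of abundance, from a mean L of 3.16 to 10.8, with a median of 5.95. The fall of a member, its mean L at 0 d minus its mean L at 5 d, ran from 1.65 to 5.91 with a median of 2.41. At the edge of the rule, the member with the lowest smaller 0 d value had an L of 3.07 and the nearest ID outside had 2.97. The smallest gap between a 0 d and a 5 d value was 1.502 inside and 1.48 outside, and the margin of CHIR99021 over 5 d was 0.50 inside and 0.51 outside. Together the members took 2.05% of wild-type reads at 0 d (Wilson 95% interval 2.04 to 2.07, counting error only) and 1.56% of optoWnt reads (1.54 to 1.57). At 3 d they took 0.408% and 0.540%, and at 5 d 0.268% and 0.345%, in wild-type and optoWnt cells. The genotypes were closer to each other at 0 d than either was to 3 d: the median difference of wild-type minus optoWnt was 0.27, 72 members were higher in wild-type cells, and 15 of 101 were more than 1 apart, against 17.1% of all 7740 IDs. The rule asked for high values in both 0 d libraries, so this closeness is a description.

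ENSRNOG00000055845 had the largest fall. It counted 422 CPM in wild-type and 128 in optoWnt cells at 0 d, 5.72 and 7.08 at 3 d, and 2.91 and 2.85 at 5 d. Both 0 d values stood far above all other libraries, although they were themselves more than 3-fold apart. After 1 d ON it stood at 3.51 with CHIR99021, 10.1 with Wnt3a and 10.3 with light, and CHIR99021 gave 0 reads at 3 d ON. The means were 275 ± 208 at 0 d and 2.88 ± 0.0429 at 5 d (SD, n = 2 each), a 95.6-fold difference.

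ENSRNOG00000001785, with the next largest fall, was more abundant and more even between genotypes. It counted 864 and 813 CPM at 0 d, 19.8 and 25.4 at 3 d, and 21.8 and 29.5 at 5 d, in wild-type and optoWnt cells. At 1 d ON the values were 5.07 with CHIR99021, 23.0 with Wnt3a and 32.1 with light, all far below 0 d, and with CHIR99021 below every unstimulated value. Its highest value outside 0 d was 55.2, in light 1 d ON 1 d OFF. The means were 838 ± 36.0 at 0 d and 25.7 ± 5.45 at 5 d (SD, n = 2 each), 32.6-fold apart.

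**Figure D1:**
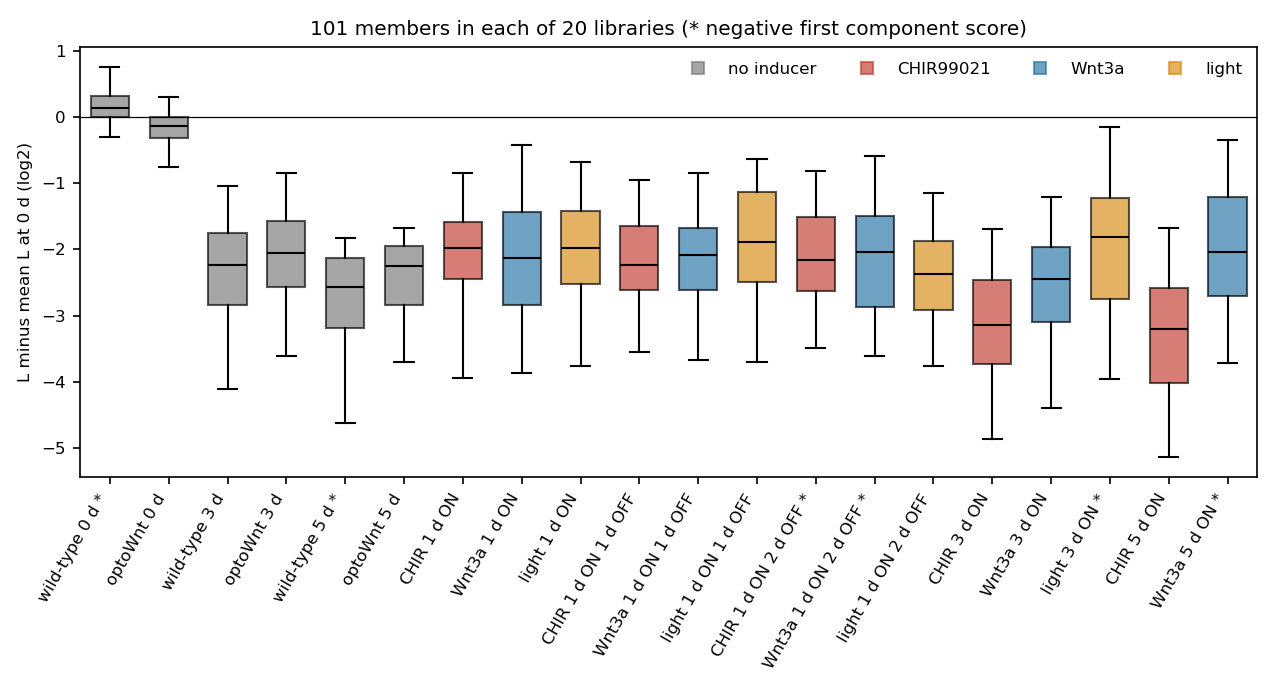
L minus the mean L at 0 d (log2 scale) for the 101 members in each of 20 libraries; the line is the median, the box the quartiles, the whiskers the 5th to 95th percentile, colours the inducer, and asterisks the libraries with a negative first component score. Medians lie between -1.97 and -2.13 at 1 d ON, near the unstimulated medians of -2.23 and -2.05 at 3 d, and the lowest are CHIR99021 at 3 d and 5 d ON.

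In the median member, most of the fall was present after the first day of stimulation, whichever inducer was used. The median change from 0 d was -1.97 with CHIR99021, -2.13 with Wnt3a and -1.97 with light. Over all 7740 IDs with an L of 3 or more at 0 d the medians were 0.11, 0.01 and 0.09. The members were chosen by their high 0 d values, which by itself favours lower values in other libraries. Nothing is therefore read from that contrast. As a share of each member's own fall, the median was 81.0% with CHIR99021 (quartiles 65.1 and 99.3), 83.8% with Wnt3a (61.4 and 107) and 78.6% with light (53.7 and 97.7). Unstimulated cells had reached 88.7% (wild-type) and 80.5% (optoWnt) by 3 d. All these shares are measured against the values that chose the members, so they are descriptions. No unstimulated library of 1 d was analysed here, so the first day's change cannot be divided between the medium and the stimulus.

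The members were below both 0 d libraries under all 3 inducers at 1 d ON in 96 of 101 cases, where 18.0% of the 7740 IDs were. In all 14 libraries that the rule did not use, 84 members stayed below the lower 0 d value, against 6.41% of those IDs. The 0 d values of both counts were used to choose the members, so neither is read as a result. The counts by share of the fall that follow rest on such values too and are descriptions. At least 50% of the fall was reached by 89 members with CHIR99021, 83 with Wnt3a and 78 with light, and by 68 with each of the 3. The full fall was reached by 25 members with CHIR99021, 38 with Wnt3a and 24 with light, and by 8 under all 3 inducers.

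The share of the fall seen at 1 d ON varied between members, somewhat more widely than at unstimulated 3 d. Averaged over inducers, the share of the fall at 1 d ON was 43.9% at the 10th percentile of members, 67.5% at the 25th, 83.7% at the median, 99.2% at the 75th and 113% at the 90th. At unstimulated 3 d the same percentiles were 56.8%, 72.0%, 85.1%, 99.0% and 109%, so the distributions differed mainly at their low end. The inducers differed by a median of 0.81 between the highest and lowest of a member's 3 values at 1 d ON. Under 50% of the fall was reached with each inducer by 4 members.

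**Figure D2:**
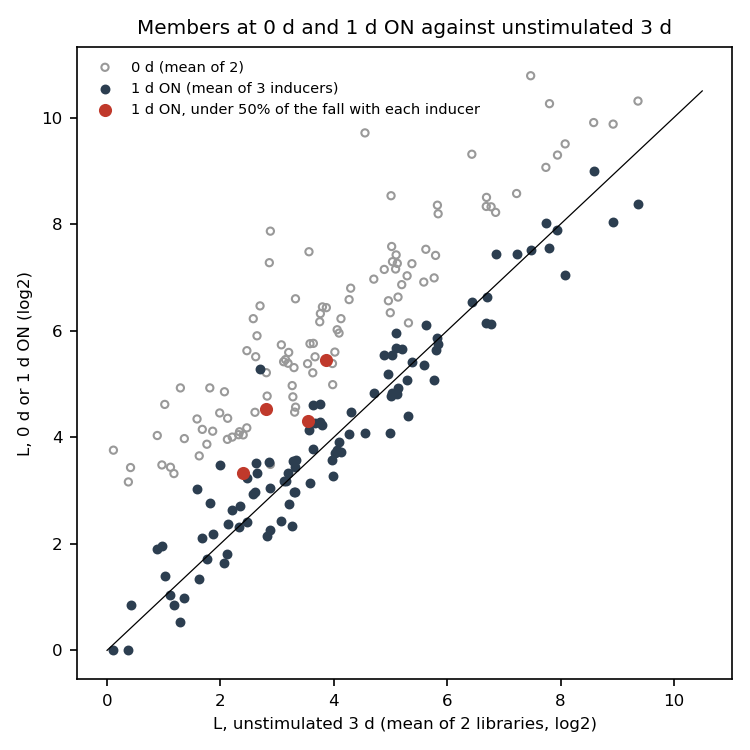
Each member's L (log2) at unstimulated 3 d (x axis, mean of 2 libraries) against its L at 0 d (open, mean of 2) and at 1 d ON (filled, mean of 3 inducers); the line marks equal values and red points are the 4 members with under 50% of the fall with each inducer. The filled points scatter around the line, 54 above and 47 below it, while the open points lie above it.

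Levels at 1 d ON and at unstimulated 3 d were compared in the 14 libraries outside the rule. The median difference of 1 d ON minus unstimulated 3 d was 0.05 on the L scale, with 54 members above and 47 below. All stimulated libraries are optoWnt and 1 of the 2 unstimulated ones is wild-type. With a genotype term the fitted median over the 100 members tested turned to -0.07 (47 positive, 53 negative), from 0.05 (55 and 45) without it, and edgeR then called 0 genes. By edgeR's quasi-likelihood test, which kept 12710 genes and 100 of the 101 members after its filter on low counts, 0 members passed an adjusted p of 0.05, as did 8 genes overall (0.0629%). At an unadjusted p under 0.05 there were 8 members (3.41% of all genes), 4 of them higher (1.11%) and 4 lower (2.3%). DESeq2 called 0 members (0.357% of genes with an adjusted p). Groups did not overlap in 14 members that were lower and 17 that were higher, where 9.11% and 10.7% of all genes did so. The stimulated cells were younger than the unstimulated ones, so age and stimulus cannot be told apart in this comparison.

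The members furthest from that common pattern kept more of their 0 d level at 1 d ON. The IDs in this and the following paragraphs were chosen after their values were seen, mostly as the smallest p in a comparison. ENSRNOG00000013552 counted 65.5 and 111 CPM at 0 d and 37.1, 56.0 and 37.0 at 1 d ON with CHIR99021, Wnt3a and light, against 11.2 and 16.5 at unstimulated 3 d. The 1 d values lay between the other groups without overlap. The log2 fold change of 1 d ON over unstimulated 3 d was 1.61 (SE 0.46, edgeR adjusted p = 0.58).

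ENSRNOG00000009350 was also late with Wnt3a and light but not with CHIR99021. It counted 91.0 and 83.9 CPM at 0 d, then 64.6 with Wnt3a, 51.2 with light and 16.0 with CHIR99021 at 1 d ON, and 2.34 and 11.6 at unstimulated 3 d. All 3 stimulated values of 1 d were above both unstimulated values of 3 d. In log2 terms the difference was 2.55 (SE 0.78, edgeR adjusted p = 0.69).

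ENSRNOG00000003388 stood on the other side of the pattern. From 757 and 696 CPM at 0 d, it was at 190 with CHIR99021, 154 with Wnt3a and 76.2 with light at 1 d ON, all below the 308 and 236 of unstimulated 3 d. The difference was -1.06 in log2 terms (SE 0.36, edgeR adjusted p = 0.89). ENSRNOG00000023896, the most abundant member, had 1599 and 1945 CPM at 0 d and from 163 to 223 at 1 d ON, a range that held both unstimulated values of 3 d (184 and 170).

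**Figure D3:**
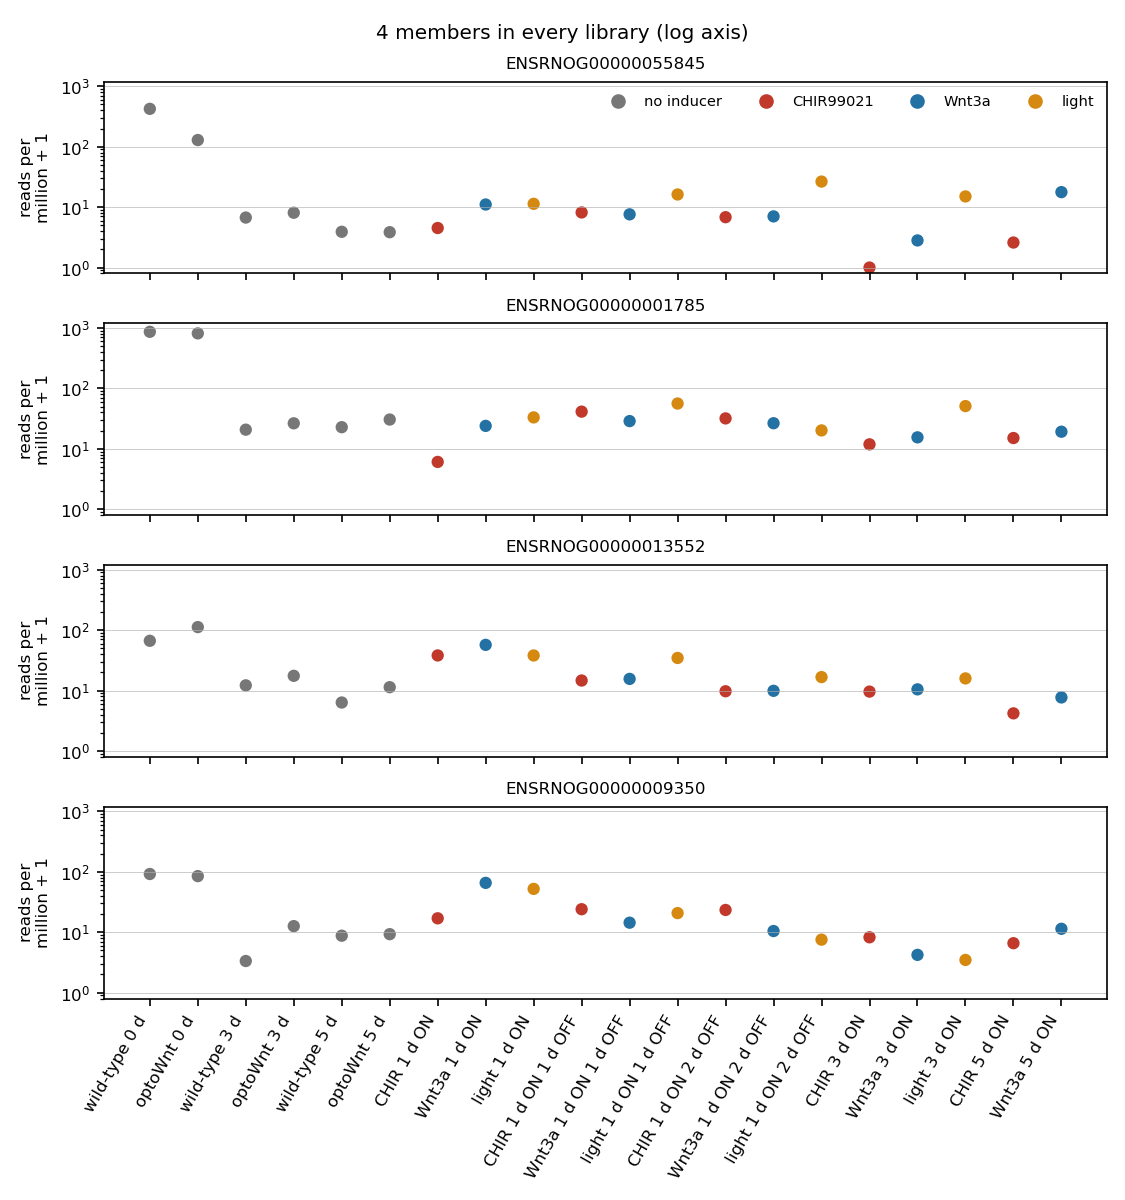
CPM plus 1 (log axis) in every library for 4 members, coloured by inducer. ENSRNOG00000055845 and ENSRNOG00000001785 are low from the first day on, while ENSRNOG00000013552 stays at 37.0 to 56.0 and ENSRNOG00000009350 at 16.0 to 64.6 CPM at 1 d ON.

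With the stimulus kept ON for 3 d, the values of the inducers lay further apart. The median share of the fall was 118% with CHIR99021, 96.4% with Wnt3a and 70.0% with light, and members took 0.167%, 0.267% and 0.463% of reads. CHIR99021 at 3 d ON was used by the rule, which caps members on the high side, so its low position is a description: 77 members had a CHIR99021 mean below the 5 d mean, 30 of them by more than 1, and the median difference was -0.45. Relative to unstimulated 3 d, 81 members were below both libraries under CHIR99021 and 10 above both, where 39.9% and 37.7% of all genes were, and nothing is read from that count.

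Wnt3a at 3 d ON, which the rule did not use, was below both unstimulated 3 d libraries in 58 members and above both in 14, where 28.7% of all genes were lower and 43.1% higher. The median difference from unstimulated 3 d was -0.31. Light at 3 d ON gave 29 members below both and 50 above both, where 38.7% and 39.1% of all genes were, with a median of 0.19. That light library is one of the 6 with a negative first component score, and the part of that in its member values was not tested. Each inducer had 1 library here, so these are comparisons of libraries.

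The 3 d ON profile, here Wnt3a and light, was tested against 1 d ON and against unstimulated 3 d. The fit adjusted it to the mean of the 3 inducers, so CHIR99021 libraries of other profiles bear on the differences below. In both comparisons edgeR called 0 members and 0% of all genes. Against 1 d ON, 15 members had an unadjusted p under 0.05 (8.54% of all genes), 2 higher (5.58%) and 13 lower (2.97%). The median of members was -0.16 and that of all genes 0.05. DESeq2 called 2 of 101 members, ENSRNOG00000009350 and ENSRNOG00000013552, and 77 of the 9337 genes with an adjusted p (0.825%). Their high values at 1 d ON, given above, enter this comparison too. Against unstimulated 3 d, 10 members had such a p (3.64% of all genes), 2 higher (2.3%) and 8 lower (1.35%). The median of members was -0.19 and that of all genes 0.01, and DESeq2 called 0 members (0.174% of genes with an adjusted p). Both member medians turned on single libraries. Without light 3 d ON they were -0.68 and -0.55, and without Wnt3a 3 d ON they were 0.07 and 0.21. Without the libraries of negative first component score, which leaves Wnt3a alone at 3 d ON, they were -0.61 and -0.58. That single library is assumed there to vary like the other groups.

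At 3 d ON ENSRNOG00000009350 stood at 3.22 CPM with Wnt3a, 2.48 with light and 7.24 with CHIR99021. The Wnt3a and light values were below every 1 d ON library. The log2 fold change of 3 d ON over 1 d ON was -3.85 (SE 0.87, edgeR adjusted p = 0.32). ENSRNOG00000013552 stood at 9.46 with Wnt3a, 14.9 with light and 8.60 with CHIR99021, also below all 1 d ON values, a change of -2.08 in log2 terms (SE 0.49, adjusted p = 0.32 by edgeR).

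ENSRNOG00000012622 stood below the unstimulated level of the same day. It counted 402 and 339 CPM at 0 d, 28.1 and 34.7 at unstimulated 3 d, and 4.75, 11.7 and 17.8 at 3 d ON with CHIR99021, Wnt3a and light. All 3 stimulated values were under both unstimulated ones. The fitted log2 fold change of 3 d ON over unstimulated 3 d was -1.44 (SE 0.50, edgeR adjusted p = 1.0). It is adjusted to the mean of the 3 inducers, so it is not the plain difference of the Wnt3a and light values.

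The 30 members that CHIR99021 took more than 1 below the 5 d mean were mostly low with Wnt3a at 3 d ON, and were on both sides of the unstimulated 3 d mean with Wnt3a at 5 d ON. At 3 d ON with Wnt3a, 27 of these 30 were below the unstimulated 3 d mean (median difference -0.70), against 46 of the 71 other members (-0.17). At 5 d ON with Wnt3a, 14 of the 30 (0.08) and 23 of the 71 (0.25) were below that mean. With light at 3 d ON the counts were 18 of 30 (-0.24) and 25 of 71 (0.31), and with CHIR99021 at 1 d ON 18 of 30 (-0.23) and 32 of 71 (0.17). Cells at 5 d ON were older, and those at 1 d ON younger, than the unstimulated 3 d cells. Age and stimulus cannot be told apart there. At 1 d ON CHIR99021 was below Wnt3a in 14 of the 30 and below light in 15, a near-even split on the first day. At 1 d ON 1 d OFF it was below Wnt3a in 19 and below light in 26 (median -0.59), and at 2 d OFF in 18 and 16. Of the 71 other members, CHIR99021 was below Wnt3a in 34 and below light in 37 at 1 d ON. At 1 d OFF these counts were 34 and 42 (median against light -0.23), and at 2 d OFF 31 and 22. CHIR99021 was thus below light in most members of both subsets at 1 d OFF. No share over all genes is given for these counts. These subsets were cut from CHIR99021 values after those were seen and share the 3 d libraries, so no test is given.

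At 5 d ON the single Wnt3a library differed from CHIR99021. The median share of the fall was 79.0% with Wnt3a and 123% with CHIR99021, and members took 0.465% and 0.232% of reads. Relative to both unstimulated 5 d libraries, 59 members were higher and 21 lower with Wnt3a, where 32.5% and 36.5% of all genes were, with a median of 0.47. The members were chosen by low values in both unstimulated 5 d libraries, which by itself favours higher values elsewhere. Nothing is therefore read from that contrast. With CHIR99021 12 were higher and 67 lower, where 31.8% and 33.5% of all genes were, and both sides of that comparison were used by the rule. In the Wnt3a library 10 members were at the lower 0 d value or above it (53.5% of the 7740 IDs were), more than in any of the other 13 libraries outside the rule, which had 0 to 6. The 0 d values chose the members, so that count is a description. The Wnt3a 5 d ON library also had the lowest first component score of all 20 (-104), and the part of that in these values was not tested.

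**Figure D4:**
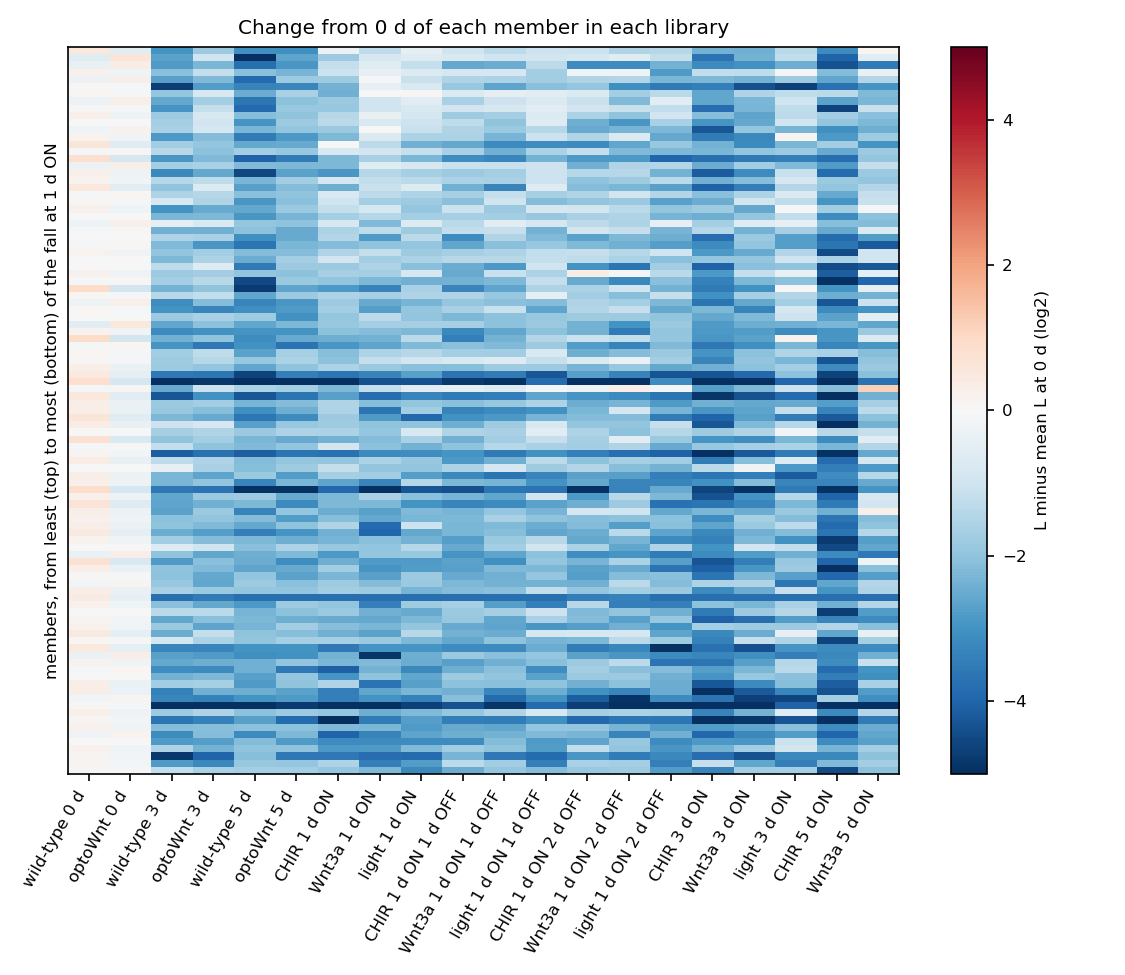
L minus the mean L at 0 d (log2, colour limits -5 and 5) for the 101 members (rows, from least to most of the fall at 1 d ON) in 20 libraries (columns). Blue prevails in every column after 0 d, and high 0 d values chose the members. It is darkest for CHIR99021 at 3 d and 5 d ON, which the rule capped on the high side. The order of the rows makes it palest in the upper rows at 1 d ON.

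After the stimulus was withdrawn, few members stood at 0 d levels. At 1 d ON 2 d OFF, 1 member with CHIR99021, 4 with Wnt3a and 1 with light were at or above the lower 0 d value, and 0 were so with each of the 3. Of the 7740 IDs, 66.1%, 62.0% and 58.3% were at or above it. The members were chosen by their high 0 d values, so nothing is read from these counts. The median share of the fall was 87.1%, 84.3% and 69.8% after 1 d OFF, and 84.8%, 83.0% and 91.9% after 2 d OFF, with CHIR99021, Wnt3a and light. For CHIR99021, the median against its own 1 d ON library was -0.06 after 1 d OFF and 0.01 after 2 d OFF. It was -0.98 when CHIR99021 was kept ON for 3 d, where 11 members were higher. The rule used that 3 d ON library and caps members on the high side, so the -0.98 is a description. For Wnt3a the medians in the same order were 0.00, -0.00 and -0.51, and for light 0.16, -0.42 and 0.16. Medians near 0 covered members that went both ways. From 1 d ON to 2 d OFF, 15 members with CHIR99021 were more than 1 higher and 7 more than 1 lower, where 9.64% and 11.0% of the 7740 IDs were. With Wnt3a, whose 1 d ON library is the shallowest, 17 were higher and 17 lower by that much, where 17.1% and 17.2% of those IDs were. With light the counts were 3 and 18, where 3.53% and 7.57% of those IDs were. Among those named, ENSRNOG00000001785 with CHIR99021 was at 5.07 CPM at 1 d ON and 30.9 at 2 d OFF, and ENSRNOG00000009350 with Wnt3a at 64.6 and 9.47.

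At 1 d ON 2 d OFF the cells had the age of the unstimulated 3 d cells. Of the 100 members tested, 47 were below both unstimulated libraries with light, 38 with CHIR99021 and 38 with Wnt3a, where 38.8%, 35.4% and 38.1% of all genes were. Above both were 23, 43 and 40, where 32.6%, 40.3% and 40.7% of all genes were. All 3 inducers were below in 19 members and above in 11, where 8.17% and 8.55% of all genes were. The CHIR99021 and Wnt3a libraries have negative first component scores, and the part of that in these counts was not tested. By edgeR 0 members were called against unstimulated 3 d (0% of all genes), and DESeq2 called 0 (0.0612% of genes with an adjusted p). At an unadjusted p under 0.05 there were 14 members (5.67% of all genes), 6 higher (2.67%) and 8 lower (3.01%). The member median was -0.06 (-0.21 to 0.10 as single libraries were left out) and that of all genes 0.01. Without light 1 d ON 2 d OFF, edgeR called 4 of 100 members and 755 genes (6.05%). Without the libraries of negative first component score, which leaves light alone at 2 d OFF, the median was -0.49, with that library assumed to vary like the other groups.

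ENSRNOG00000015131 was the lower member with the smallest p in that comparison. It counted 953 and 926 CPM at 0 d, 388 and 609 at unstimulated 3 d, and 81.0 and 265 at unstimulated 5 d, so that 5 d was lower than 3 d in both genotypes. After 1 d ON 2 d OFF it stood at 116 with CHIR99021, 74.3 with Wnt3a and 279 with light, all below both unstimulated libraries of 3 d. On the log2 scale the difference was -1.85 (SE 0.49, edgeR adjusted p = 0.83).

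Withdrawn and sustained stimulus were compared at the same age, with Wnt3a and light standing for 3 d ON. The fit adjusted 3 d ON to the mean of the 3 inducers, as above. By edgeR 0 members were called (0% of all genes), and DESeq2 called 0 (0.112% of genes with an adjusted p). At an unadjusted p under 0.05 there were 9 members (5.97% of all genes), 7 higher (2.86%) and 2 lower (3.12%). The member median of withdrawn over sustained was 0.08, and -0.03 over all genes. It was -0.18 without Wnt3a 3 d ON, 0.54 without light 3 d ON, 0.35 without light 1 d ON 2 d OFF and -0.05 without Wnt3a 1 d ON 2 d OFF. Without the libraries of negative first component score it was -0.02.

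The inducers were compared with each other through 1 inducer term over the 14 libraries. CHIR99021 entered at 1 d ON, 1 d OFF and 2 d OFF, and the Wnt3a and light libraries of 3 d ON also bore on the fitted differences. For Wnt3a over CHIR99021 edgeR called 0 members (0% of all genes), DESeq2 called 0 (0.0715% of genes with an adjusted p), and the member median was 0.00 (-0.16 to 0.07 as single libraries were left out). At an unadjusted p under 0.05 there were 3 members (1.69% of all genes), 1 higher (0.708%) and 2 lower (0.983%). For light over CHIR99021 edgeR called 0 members and 9 genes (0.0708%). An unadjusted p under 0.05 was found for 9 members (9.51% of all genes), 8 higher with light (4.23%) and 1 lower (5.29%). The median of members was 0.18 and that of all genes -0.00. The former was 0.07 without Wnt3a 3 d ON or without light 3 d ON, 0.31 without light 1 d ON 2 d OFF, 0.33 without CHIR99021 1 d ON 2 d OFF, 0.29 without light 1 d ON, and 0.29 without the libraries of negative first component score. DESeq2 called 1 of 101 members, where 1.63% of genes with an adjusted p were called.

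That member was ENSRNOG00000055845, described above by its fall. At 1 d ON 1 d OFF it stood at 7.16 CPM with CHIR99021, 6.59 with Wnt3a and 15.2 with light, and after 2 d OFF at 5.82, 6.03 and 25.5. Light was highest in all 3 matched profiles, narrowly over Wnt3a at 1 d ON, and remained far under the 0 d values. The log2 fold change of light over CHIR99021 was 1.82 (SE 0.51), with an edgeR adjusted p of 0.24 and a DESeq2 adjusted p of 0.027. ENSRNOG00000033734 was a rare member with 26 and 31 reads at 0 d. With light it had 1 read at 1 d ON and 0 reads at 1 d OFF and 2 d OFF, against 14, 15 and 11 with CHIR99021. In CPM it stood at 0.54 with light and 2.73 with CHIR99021 at 1 d ON. With Wnt3a it had 0, 11 and 8 reads in the same profiles, the 0 in the shallowest library. Its log2 fold change of light over CHIR99021 was -4.42 (SE 1.19, edgeR adjusted p = 0.22). That fitted value depends on the prior count and is no bound.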

How the data were processed

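Messenger RNA 3' ends of 20 libraries were sequenced with Lexogen's QuantSeq chemistry, per the labels' protocols. The authors deposited whole-number read counts per gene without normalization. The submitters' processing notes name Bowtie2, Subread, featureCounts and the build Rnor_6.0. The sources used here give neither the strand setting nor the handling of multi-mapping reads, so reads of near-identical or overlapping genes may be miscounted. No length correction was applied. Libraries were matched by the well in their labels, and 0 other per-sample columns were present.

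The members, lists and tests were chosen with earlier results of these data known. L used library totals and a pseudocount of 1. Tests were run in R 4.3.3 with the quasi-likelihood functions of edgeR 4.0.16 (TMM, filterByExpr by profile) on the 14 libraries outside the rule, with terms for profile and inducer, and Benjamini-Hochberg adjustment over 12710 genes at 0.05. Inducer terms were coded around the mean of the 3 inducers. The fit was tested on simulated data. DESeq2 1.42.0 (Wald test), other scalings, filters, covariates and left-out libraries were alternatives. Intervals and floors of 3 counts cover counting error only. Without symbols, the rule for named genes gives the pair of members with the largest fall, and 16 prepared gene lists went unused.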

Additional observations from a re-analysis of the deposited data

How the results depend on the processing

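No paired analysis was possible because the labels give no replicate numbers; libraries are tied only by inducer, which is a term of the fit, and by genotype, a term tried as an alternative. The rule gave 104 members with TMM-scaled totals (97 shared with the 101), 102 with a pseudocount of 0.5 (95 shared), 84 with an L of 4 or more at 0 d, and 39 with a gap of 2 or more between each 0 d and 5 d value. Members called at an adjusted p under 0.05, 0 by edgeR in each of the 7 comparisons, came to other counts in a few alternatives. With no filter on low counts they were 1 of 101 for 1 d ON against unstimulated 3 d (0.342% of all genes), 2 for 3 d ON against 1 d ON (0.908%), 1 for 1 d ON 2 d OFF against unstimulated 3 d (0.143%), and 3 for light against CHIR99021 (1.34%). DESeq2 called 2 for 3 d ON against 1 d ON and 1 for light against CHIR99021, and all 20 libraries with a genotype term gave 1 for light against CHIR99021 (1.39% of all genes). Leaving out single libraries gave 0 to 4 for 1 d ON 2 d OFF against unstimulated 3 d, the 4 without light 1 d ON 2 d OFF (6.05% of all genes), and 0 in the other 6 comparisons. Of all genes, DESeq2 called 70, 77, 34, 12, 19, 14 and 189 in the 7 comparisons in the order of the report, where edgeR called 8, 0, 0, 0, 0, 0 and 9. With all 20 libraries, which adds those that chose the members, CHIR99021 3 d and 5 d ON among them, the medians of members were, in the same order, 0.16, -0.50, -0.42, 0.11, 0.39, 0.43 and 0.58, against 0.05, -0.16, -0.19, -0.06, 0.08, 0.00 and 0.18. The cause of these differences was not tested. Without the libraries of negative first component score, an alternative chosen after seeing the data, 0 members were called in each comparison, with 1 library left at 3 d ON and 1 at 2 d OFF, whose spread is assumed from the other groups. The shallowest library, Wnt3a 1 d ON, limits statements on members with few reads.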
